A study of Mus musculus with 25 samples.

Results

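Described here are 10 genes of the epidermal growth factor (EGF) receptor system, found by symbol among the 25006 entries of a table of normalized RNA-seq counts. They are the receptor genes Egfr, Erbb2 and Erbb3, the ligand genes Nrg1, Btc, Ereg, Areg, Hbegf and Tgfa, and the inhibitor gene Errfi1. Each member matched 1 entry. The libraries came from preparations labelled as CD8+ T cells enriched out of E0771 tumours in C57BL/6 mice, E0771 being a mouse mammary carcinoma line. Of the libraries used, 3 came from anti-CD73 treatment in vivo, given every 3 days, and 3 were controls. No genotype, age or control antibody is given in the labels, and the replicate numbers are not tied to separate animals, so each p-value rests on the spread among these libraries, and part of that spread may be technical. Of the series' 25 samples, 19 from spleen were not analysed here.

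EGF receptors are receptor tyrosine kinases at the cell surface that pair with one another when a ligand binds. EGFR binds amphiregulin, epiregulin, betacellulin, TGF-alpha and heparin-binding EGF, ERBB3 binds neuregulins and has little kinase activity of its own, and ERBB2 has no known ligand and serves as the partner of the others. The ligands are made as membrane proteins and are cut free by metalloproteases, and the paired receptors signal through the RAS-ERK and PI3K-AKT pathways. In mammary tumours the family is known for its part in carcinoma growth. In the immune compartment, amphiregulin and epiregulin are known as products of activated leukocytes, amphiregulin also of regulatory T cells. CD73, the enzyme that forms adenosine from AMP outside cells, lies upstream of adenosine receptors, some of which raise cyclic AMP in T cells.

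Libraries held 10180624 to 17161679 reads in genes. Defining T cell markers were present but scarce, Cd8a at 34.96 to 90.2 normalized counts in anti-CD73 libraries and 7.60 to 121.8 in controls. The 11 measured genes of a T cell list took 0.0034 to 0.00619% of the reads in anti-CD73 libraries and 0.00195 to 0.00603% in controls. The 12 genes of a macrophage list took 0.0967 to 0.176% and 0.0571 to 0.11% of the reads, again after anti-CD73 and in controls. In bulk samples such as these, fewer cells of a type and less RNA per cell cannot be told apart. Control replicate 1 stood apart from the other controls. Its log2 values departed from the mean of control replicates 2 and 3 with an SD of 0.75 over tested genes, and those 2 departed from each other with an SD of 0.35. It was the highest of the 6 libraries for Egfr, Areg, Ereg, Hbegf, Tgfa and Errfi1, 6 of the 10 members. It was also the highest for 30.7% of all tested genes, which do not include Tgfa (5 reads there and in anti-CD73 replicate 1). The members' results are therefore given with and without it, a choice that followed from the data.

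No member passed the test with all 6 libraries, and neuregulin 1 came closest. A mean of 10 normalized counts or more was reached by 9 members. Of these 9, 0 had an adjusted p under 0.05 by limma on log2(normalized count + 1), as did 0.0% of the 12262 tested genes. At an unadjusted p under 0.05, 1 member (Nrg1) stood higher after anti-CD73 and 0 stood lower, against 8.69% higher, 6.82% lower and 15.5% in either direction of all tested genes. With reads recovered from the values, edgeR's quasi-likelihood test called 0 members, against 0.0% of genes by adjusted p and 15.2% by unadjusted p. DESeq2 called 1 higher member, Nrg1, against 2.84% of genes higher and 4.69% in either direction, and gave no adjusted p to Btc. For 3 of the 9, anti-CD73 and control libraries were fully separated (Nrg1 higher, Ereg and Hbegf lower), against 23.5% of tested genes (11.5% higher, 12.0% lower). Without control replicate 1, limma called 3 of the 9, all higher (Nrg1, Btc and Egfr), against 22.2% of tested genes in either direction, 11.9% higher and 10.3% lower. Without it edgeR also called 3 members, against 22.0% of genes, and DESeq2 called 2 (Nrg1 and Egfr), against 21.1%. The median log2 fold change of the 9 was 0.06, beside 0.00 over all tested genes, and without control replicate 1 it was 0.01, beside -0.02.

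**Figure D1:**
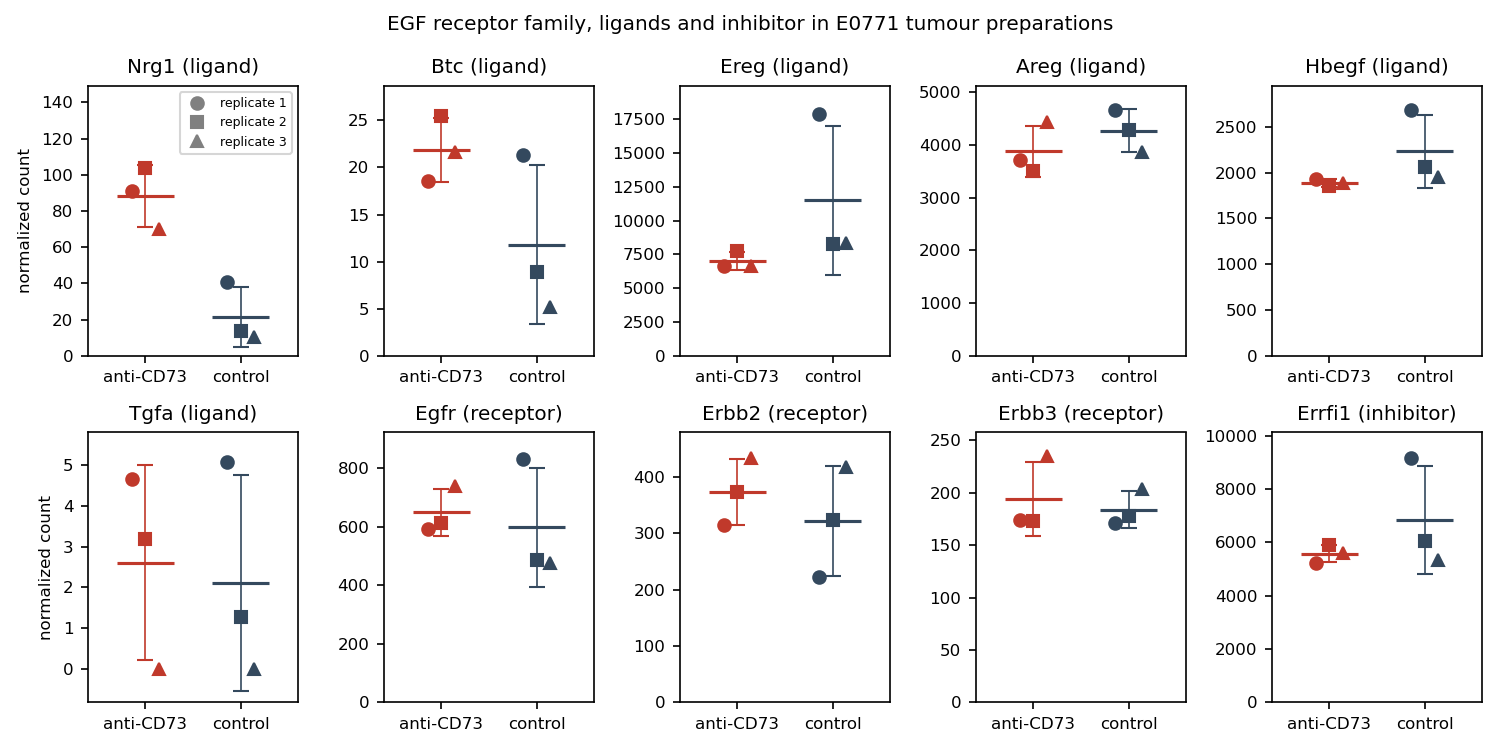
Normalized counts of the 10 members in each library, with anti-CD73 libraries on the left and controls on the right of each panel. Points are libraries, horizontal lines are means and bars are 1 SD (n = 3 per group); the vertical scale differs between panels. The 3 anti-CD73 libraries lay at 69.9 to 104 for Nrg1, all above the controls, while control replicate 1 (circle) was the highest library for Ereg, Errfi1, Hbegf and Egfr.

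Among the ligands, Nrg1 showed the widest separation between the groups. It encodes neuregulin 1, the ligand of ERBB3 and ERBB4, and lies on chromosome 8 from 31807452 to 32891609 (ENSMUSG00000062991; all positions are on GRCm38.p6). Anti-CD73 replicates 1, 2 and 3 held 91.1, 104 and 69.9 normalized counts of Nrg1, against 40.6, 13.9 and 10.5 in control replicates 1, 2 and 3. All 3 anti-CD73 libraries lay above all controls, and control replicate 1 lay between the other controls and the anti-CD73 libraries. The means were 88.3 ± 17.1 after anti-CD73 and 21.7 ± 16.5 in controls (SD, n = 3 each), a ratio of 4.07. These values came from 98, 98 and 68 reads after anti-CD73 and 40, 11 and 14 reads in controls. The exact 95% Poisson interval of the smallest anti-CD73 count, 52.8 to 86.2 reads, and that of the largest control count, 28.6 to 54.5, cover counting error only. The log2 fold change by limma was 2.19 (SE 0.48, 95% interval 1.07 to 3.32, unadjusted p = 0.00227, adjusted p = 0.158), higher in 3 of 3 anti-CD73 libraries. DESeq2 gave 2.03 (SE 0.50, adjusted p = 0.00419). Without control replicate 1, limma gave 2.75 (SE 0.28, adjusted p = 0.00148). Over all settings tried, the log2 fold change of Nrg1 lay between 1.82 and 2.89, and its adjusted p between 2.04e-09 and 0.665.

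Btc, which encodes betacellulin, a ligand of both EGFR and ERBB4, was measured from few reads. It lies on chromosome 5 from 91357261 to 91402994 (ENSMUSG00000082361). Its normalized counts were 18.6, 25.4 and 21.6 in anti-CD73 replicates 1, 2 and 3, against 21.3, 8.87 and 5.24 in control replicates 1, 2 and 3. Control replicate 1 lay within the anti-CD73 range, and control replicates 2 and 3, at 7 reads each, lay below it. The Poisson interval of 7 reads is 2.81 to 14.4, and that of the 20 reads of anti-CD73 replicate 1 is 12.2 to 30.9. The log2 fold change by limma was 1.03 (SE 0.50, 95% interval -0.14 to 2.20, adjusted p = 0.368). It passed without control replicate 1 by limma (1.53, SE 0.39, adjusted p = 0.0252) and by edgeR (1.70, adjusted p = 0.0228), but not by DESeq2 (1.68, SE 0.67, adjusted p = 0.0532). Over all settings its adjusted p ranged from 0.0228 to 0.81.

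Ereg, Areg and Hbegf, the genes of epiregulin, amphiregulin and heparin-binding EGF, were measured from at least 1626 reads in every library and did not pass in any setting tried. Ereg (chromosome 5, 91074617 to 91093649, ENSMUSG00000029377) stood at 6634, 7777 and 6676 normalized counts in anti-CD73 replicates 1, 2 and 3. In control replicates 1, 2 and 3 it stood at 17877, 8303 and 8340. All controls lay above all anti-CD73 libraries, and control replicate 1 was 2.15 times the mean of the other 2. By limma its log2 fold change was -0.62 (SE 0.29, 95% interval -1.30 to 0.07, adjusted p = 0.362), lower in 3 of 3 anti-CD73 libraries. Without control replicate 1 it was -0.25 (SE 0.09, adjusted p = 0.0768).

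Areg (chromosome 5, 91139599 to 91148432, ENSMUSG00000029378) had 3716, 3499 and 4429 normalized counts in anti-CD73 replicates 1, 2 and 3, and 4675, 4280 and 3870 in control replicates 1, 2 and 3. The groups overlapped, as anti-CD73 replicate 3 lay above control replicates 2 and 3. By limma its log2 fold change was -0.14 (SE 0.13, 95% interval -0.45 to 0.17, adjusted p = 0.643), and -0.08 (SE 0.11, adjusted p = 0.654) without control replicate 1. Hbegf (ENSMUSG00000024486) had 1928, 1851 and 1881 normalized counts in anti-CD73 replicates 1, 2 and 3, against 2684, 2060 and 1951 in control replicates 1, 2 and 3. The groups did not overlap, although control replicate 3 lay near the highest anti-CD73 library. By limma, Hbegf had a log2 fold change of -0.23 (SE 0.14, 95% interval -0.56 to 0.10, adjusted p = 0.475), and -0.09 (SE 0.07, adjusted p = 0.436) without control replicate 1.

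Tgfa, the gene of TGF-alpha (chromosome 6, 86195038 to 86275744, ENSMUSG00000029999), was below the mean of 10 normalized counts set for the test. It had 5, 3 and 0 reads in anti-CD73 replicates 1, 2 and 3, and 5, 1 and 0 reads in control replicates 1, 2 and 3. The Poisson interval of 0 reads reaches up to 3.69 reads in a library. Fitted with no filter on low values, Tgfa had a log2 fold change by limma of 0.26 (SE 0.82, 95% interval -1.60 to 2.12, adjusted p = 0.92), an interval that includes changes of several fold in either direction.

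**Figure D2:**
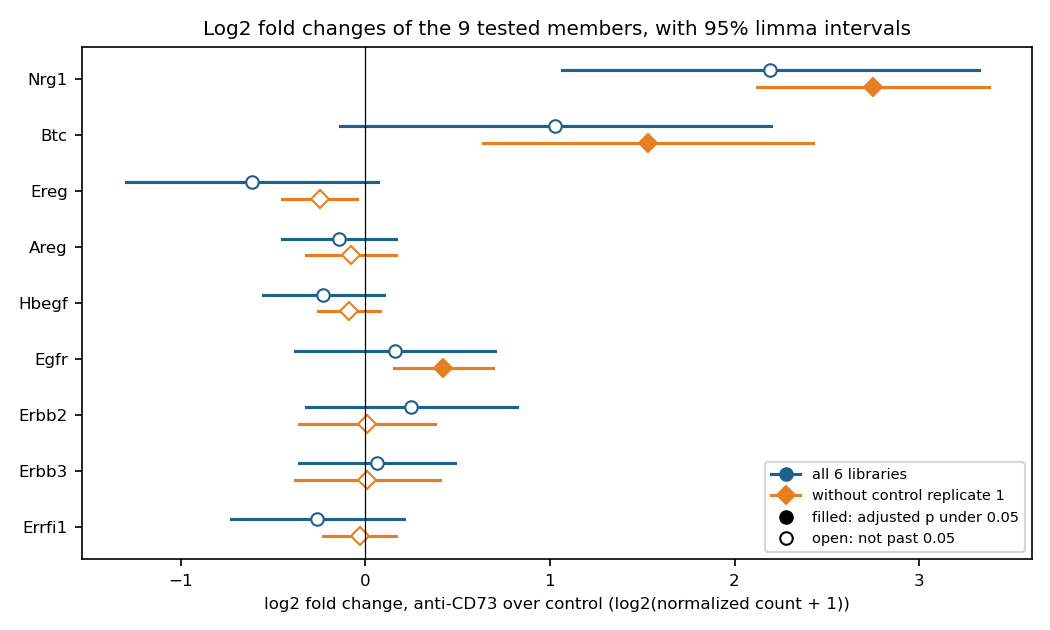
Log2 fold changes (anti-CD73 over control) of the 9 tested members by limma, with 95% intervals, from all 6 libraries (circles) and without control replicate 1 (diamonds). Filled symbols have an adjusted p under 0.05 over all tested genes: none with all 6 libraries, and Nrg1 (2.75), Btc (1.53) and Egfr (0.42) without control replicate 1.

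The receptor genes overlapped between the groups. Egfr (chromosome 11, 16752203 to 16913907, ENSMUSG00000020122) had 593, 614 and 741 normalized counts in anti-CD73 replicates 1, 2 and 3, against 833, 487 and 477 in control replicates 1, 2 and 3. Control replicate 1 lay above every anti-CD73 library, and the other controls lay below every one of them. By limma, Egfr had a log2 fold change of 0.16 (SE 0.23, 95% interval -0.38 to 0.70, adjusted p = 0.775). Without control replicate 1 it was 0.42 (SE 0.12, adjusted p = 0.0327), and edgeR and DESeq2 also called it then (adjusted p = 0.0299 and 0.0185). Its adjusted p ranged from 0.0185 to 0.972 over all settings.

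Erbb2, the gene of the partner receptor without a ligand (chromosome 11, 98412484 to 98437716, ENSMUSG00000062312), had 315, 373 and 433 normalized counts in anti-CD73 replicates 1, 2 and 3. In control replicates 1, 2 and 3 it had 223, 324 and 418. Here control replicate 1 was the lowest library, unlike for Egfr. By limma, Erbb2 had a log2 fold change of 0.25 (SE 0.24, 95% interval -0.32 to 0.82, adjusted p = 0.662), and 0.01 (SE 0.16, adjusted p = 0.974) without control replicate 1. Erbb3, the neuregulin receptor gene (chromosome 10, 128567523 to 128589635, ENSMUSG00000018166), had 174, 173 and 234 normalized counts in anti-CD73 replicates 1, 2 and 3, and 171, 177 and 204 in control replicates 1, 2 and 3. In each group replicate 3 was the highest library. Its log2 fold change by limma was 0.06 (SE 0.18, 95% interval -0.36 to 0.49, adjusted p = 0.9), a sign that turned with quantile normalization (-0.029) and without anti-CD73 replicate 3 (-0.081). It was 0.01 (SE 0.17, adjusted p = 0.969) without control replicate 1. Erbb4, the fourth receptor gene and the other neuregulin receptor, is not a member and had 0 reads in all 6 libraries. The Poisson interval of 0 reads reaches up to 3.69 reads per library.

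Errfi1 encodes MIG6, a cytoplasmic protein that binds the kinase domain of active EGFR family receptors and shuts it off, and whose gene is induced by the receptors' own signal. It lies on chromosome 4 from 150853796 to 150868889 (ENSMUSG00000028967). It had 5230, 5885 and 5605 normalized counts in anti-CD73 replicates 1, 2 and 3, and 9151, 6066 and 5325 in control replicates 1, 2 and 3. Control replicate 1 was the highest library, at 1.61 times the mean of the other controls, and control replicate 3 lay within the anti-CD73 range. The log2 fold change of Errfi1 by limma was -0.26 (SE 0.20, 95% interval -0.73 to 0.21, adjusted p = 0.575), and -0.03 (SE 0.09, adjusted p = 0.84) without control replicate 1.

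Promoter windows were at hand for Areg, Btc, Egfr, Erbb2, Errfi1 and Tgfa (RefSeq, GRCm38.p6), and 3 are printed because they differ in the cyclic AMP response element (CRE), the site bound by the CREB factors that cyclic AMP activates. Each is the 250 bases before an annotated start, read 5′ to 3′ on the gene's strand. The Areg window is chr5:91139349-91139598, plus strand. The Errfi1 window, the one before the later of its 2 annotated starts, is chr4:150854820-150855069, plus strand. The Egfr window is chr11:16751953-16752202, plus strand. Capitals mark the CRE TGACGTCA (the same on both strands), the TATA sequence TATAAA on the gene's strand, and the GC box GGGCGG on either strand; neighbouring GC boxes can overlap.
Areg: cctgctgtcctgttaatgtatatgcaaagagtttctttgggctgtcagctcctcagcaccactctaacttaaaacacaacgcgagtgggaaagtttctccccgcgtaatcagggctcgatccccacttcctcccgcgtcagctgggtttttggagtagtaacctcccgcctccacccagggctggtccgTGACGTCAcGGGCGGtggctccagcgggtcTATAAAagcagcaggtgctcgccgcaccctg
Errfi1: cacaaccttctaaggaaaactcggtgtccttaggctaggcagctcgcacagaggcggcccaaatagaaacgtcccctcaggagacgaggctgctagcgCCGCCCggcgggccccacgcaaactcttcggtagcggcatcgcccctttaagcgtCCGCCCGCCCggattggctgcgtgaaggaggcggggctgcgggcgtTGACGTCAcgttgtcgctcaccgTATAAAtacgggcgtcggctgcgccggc
Egfr: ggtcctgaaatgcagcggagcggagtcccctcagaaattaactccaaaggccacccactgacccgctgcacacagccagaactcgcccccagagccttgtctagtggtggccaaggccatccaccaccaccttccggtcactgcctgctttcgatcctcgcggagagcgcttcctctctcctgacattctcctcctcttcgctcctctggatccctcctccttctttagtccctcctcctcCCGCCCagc
The CRE began 61 bases before the start of Areg and 51 bases before that of Errfi1, and TATAAA began 31 and 28 bases before those starts. Neither sequence was in the windows of Egfr, Btc, Erbb2 or Tgfa, nor in that before the earlier Errfi1 start. Of all 32851 windows of this length, 1.55% held TGACGTCA, 7.59% held TATAAA and 0.07% (23 windows) held both. The AP-1 site TGANTCA, searched on both strands, was in 0 of the 7 windows of the members, against 6.75% of all windows. GGGCGG was found in windows of Areg, Errfi1, Egfr and Tgfa, and in 32.7% of all windows. These matches describe letters and not binding. The log2 fold changes of Areg and Errfi1 were -0.14 and -0.26 (adjusted p = 0.643 and 0.575 by limma), as given above.

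The ligand genes Ereg, Areg and Btc are neighbours on chromosome 5, together with Epgn, the gene of the ligand epigen, within 375 kb, and next to a cluster of chemokine genes. Within 350 kb on either side of Ereg to Btc the table held 10 other protein-coding genes, picked by position after the members' values were known. Of the 7 tested, 0 passed by limma with all 6 libraries and 4 passed without control replicate 1: Cxcl5, Ppbp, Cxcl3 and Cxcl2, all higher, against 11.9% of all tested genes higher and 22.2% in either direction. Cxcl2, a neutrophil-attracting chemokine gene, had 7701, 6053 and 5005 normalized counts in anti-CD73 replicates 1, 2 and 3, against 10344, 3053 and 1982 in control replicates 1, 2 and 3. Like Btc, it was low in control replicates 2 and 3 only. Unlike for Btc, control replicate 1 was the highest library for Cxcl2. Cxcl1, another such chemokine gene, had 13462, 12464 and 19084 normalized counts in anti-CD73 replicates 1, 2 and 3, against 49357, 15350 and 12168 in control replicates 1, 2 and 3. As for Ereg, control replicate 1 was its highest library. Epgn had 9.30, 8.47 and 9.25 normalized counts in anti-CD73 replicates 1, 2 and 3 and 7.11, 3.80 and 8.23 in control replicates 1, 2 and 3, and was not tested. Control replicate 1 was the highest library for Ereg and Areg, but not for Btc or Epgn.

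Other genes of the pathway were counted from 7 lists of 71 genes (further ligands, the further receptor, sheddases and iRhoms, adaptors with the ERK cascade, the PI3K-AKT branch, receptor turnover with inhibitors, and ERK-induced transcripts). Of the 66 tested, 0 passed in either direction by limma with all 6 libraries, as did 0.0% of all tested genes. At an unadjusted p under 0.05, 3 of the 66 stood higher and 5 lower. Of all tested genes, 8.69% stood higher, 6.82% lower and 15.5% in either direction. The median log2 fold change of the 66 was 0.01, beside 0.00 over all tested genes. By edgeR 0 passed, and by DESeq2 4 did, against 4.69% of all genes. Anti-CD73 and control libraries were fully separated for 6 higher and 6 lower genes, or 12 of 66, against 23.5% of tested genes. Without control replicate 1, limma called 4 higher and 6 lower, or 10 of 66, against 22.2%.

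Among the sheddases and iRhoms, which free the ligands from the membrane, Rhbdf2 had the smallest p of the higher genes and Adam17 of the lower ones. Rhbdf2 encodes iRhom2, which carries the main sheddase ADAM17 to the cell surface. It had 1435, 1653 and 1390 normalized counts in anti-CD73 replicates 1, 2 and 3, against 1063, 1030 and 1194 in control replicates 1, 2 and 3. The groups did not overlap, and control replicate 1 lay with the other controls. Rhbdf2 had a log2 fold change by limma of 0.44 (SE 0.12, adjusted p = 0.18), and 0.42 (SE 0.11, adjusted p = 0.0225) without control replicate 1. Rhbdf1, its paralog, named after its value was seen, had -0.12 (SE 0.28, adjusted p = 0.87), and -0.46 (SE 0.10, adjusted p = 0.0117) without control replicate 1. Adam8, a sheddase gene also named after its value was seen, had 0.54 (SE 0.18, adjusted p = 0.0489) by DESeq2 with all libraries. By limma it had 0.54 (SE 0.15, adjusted p = 0.181), and 0.64 (SE 0.11, adjusted p = 0.00523) without control replicate 1. Adam17 itself had -0.10 (SE 0.14, adjusted p = 0.773), and 0.03 (SE 0.08, adjusted p = 0.804) without control replicate 1.

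In the signalling branches, Pik3r1, the gene of the regulatory p85-alpha subunit of PI3K, had 794, 622 and 783 normalized counts in anti-CD73 replicates 1, 2 and 3. In control replicates 1, 2 and 3 it had 1306, 1205 and 1283. These groups lay well apart, and control replicate 1 was close to the other controls. Its log2 fold change by limma was -0.79 (SE 0.13, adjusted p = 0.141), -0.77 (SE 0.12, adjusted p = 0.00393) without control replicate 1 and, by DESeq2 with all libraries, -0.79 (SE 0.16, adjusted p = 0.000236). Akt2 was the higher gene of that branch with the smallest p (0.25, SE 0.13, adjusted p = 0.404, and 0.15, SE 0.09, adjusted p = 0.271 without control replicate 1). Among adaptors and the ERK cascade, the adaptor gene Gab2 had 0.32 (SE 0.13, adjusted p = 0.316), and 0.21 (SE 0.09, adjusted p = 0.124) without control replicate 1.

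Of the 16 ERK-induced transcripts, 9 had a positive and 7 a negative log2 fold change, with a median of 0.01. At an unadjusted p under 0.05 by limma, 0 were higher and 3 lower (Ier3, Fosl1 and Myc), against 8.69% higher and 6.82% lower of all tested genes. Fully separated libraries were found for 0 higher and the same 3 lower genes, against 11.5% higher and 12.0% lower of all tested genes. Ier3, an early-response gene induced by ERK, had 7810, 6800 and 8699 normalized counts in anti-CD73 replicates 1, 2 and 3, against 17858, 11684 and 10945 in control replicates 1, 2 and 3. All anti-CD73 libraries lay below all controls. By DESeq2 with all libraries, Ier3 had a log2 fold change of -0.80 (SE 0.23, adjusted p = 0.0202). Its log2 fold change by limma was -0.77 (SE 0.20, adjusted p = 0.178), and -0.55 (SE 0.11, adjusted p = 0.00852) without control replicate 1. Fos had 0.29 (SE 0.18, adjusted p = 0.482), and 0.29 (SE 0.18, adjusted p = 0.262) without control replicate 1. Egr1, named after its value was seen, had 0.40 (SE 0.27, adjusted p = 0.512), and 0.72 (SE 0.12, adjusted p = 0.00491) without control replicate 1. Fosl1, named likewise, had -0.33 (SE 0.11, adjusted p = 0.244), and -0.34 (SE 0.09, adjusted p = 0.0327) without control replicate 1. So the 3 of 16 genes called without control replicate 1 were 1 higher and 2 lower. Of all tested genes, 11.9% were called higher, 10.3% lower and 22.2% in either direction. Among turnover and inhibitor genes, the ubiquitin ligase gene Cbl had 0.22 (SE 0.14, adjusted p = 0.491) and Socs4 -0.27 (SE 0.17, adjusted p = 0.489). Cbl had 0.30 (SE 0.11, adjusted p = 0.0849) and Socs4 -0.10 (SE 0.10, adjusted p = 0.53) without control replicate 1. Of the further ligands, Egf had 0.50 (SE 0.55, adjusted p = 0.701) and Nrg4 -0.28 (SE 0.32, adjusted p = 0.719). Egf had 0.09 (SE 0.50, adjusted p = 0.925) and Nrg4 -0.39 (SE 0.35, adjusted p = 0.46) without control replicate 1.

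**Figure D3:**
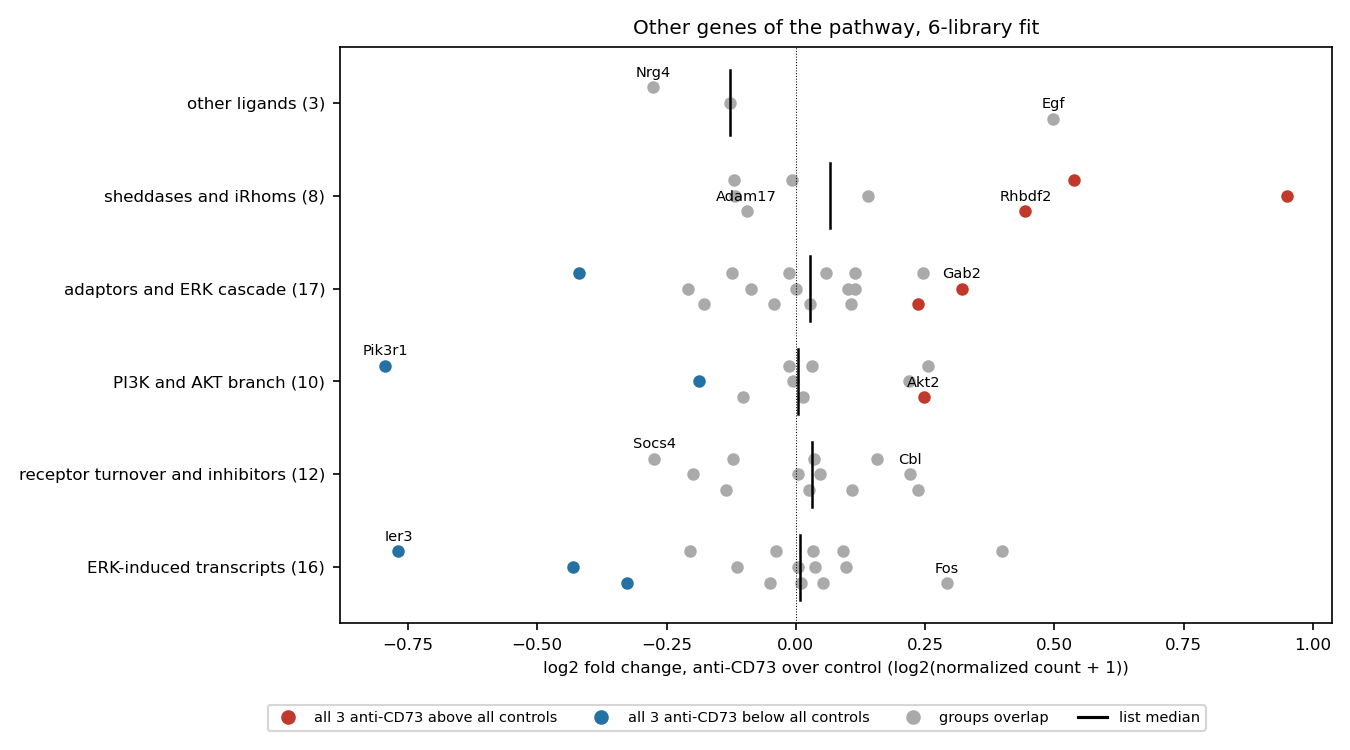
Log2 fold changes (anti-CD73 over control, 6 libraries) of the 66 tested genes of the pathway lists, with the number tested per list in brackets and the list median as a bar. Labels mark genes with the smallest p in a direction of their list; Pik3r1 (-0.79) and Ier3 (-0.77) were the lowest of all, and the unlabelled highest point, Adam12 (0.95, SE 0.53, adjusted p = 0.432), rests on few reads.

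Markers of several other cells also differed between libraries, and their part in the results was not tested. By limma with all 6 libraries no marker passed, as for all tested genes. In brackets is how many tested genes of each list had a positive log2 fold change, against 6197 of all 12262 tested genes. Neutrophil markers (7 of 8) summed to 8530 to 15043 normalized counts after anti-CD73 and 5826 to 7701 in controls. Macrophage markers (12 of 12) summed to 11934 to 21702 after anti-CD73 and 7335 to 14299 in controls, and endothelial markers (5 of 5) to 930 to 1541 and 453 to 1003. Skeletal muscle markers (5 of 5) summed to 293 to 315 after anti-CD73 and 127 to 274 in controls. Schwann cell markers, of cells known to depend on neuregulin, summed to 90.5 to 149 after anti-CD73 and 78.2 to 110 in controls, with 1 of 2 tested genes positive. Fibroblast markers (4 of 7) summed to 3156 to 3586 after anti-CD73 and 2619 to 3316 in controls.

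For mast cells and basophils, a known source of amphiregulin, the markers (5 of 5) summed to 171 to 289 after anti-CD73 and 126 to 356 in controls. Epithelial markers (1 of 3) summed to 2128 to 2705 after anti-CD73 and 1962 to 4665 in controls, with control replicate 1 the lowest library. Most of that sum was Krt8, at 1856 normalized counts in control replicate 1, where Krt18 stood at 89.4, the second highest of its 6 values. Erythroid markers (0 of 6) summed to 8417 to 30996 after anti-CD73 and 7847 to 58743 in controls. The T cell list (11 of 11) summed to 420 to 759 and 252 to 784, and the dendritic cell list (5 of 5) to 680 to 1059 and 349 to 847, each after anti-CD73 and in controls. Keratinocyte and adipocyte markers were near 0, at 10.2 to 19.1 and 10.3 to 13.02 after anti-CD73 and 15.7 to 22.3 and 5.08 to 12.7 in controls, and Krt1, Krt15 and Dsg3 were at 0 in all libraries. No other marker listed was at 0 throughout. Control replicate 1 lay within or above the anti-CD73 range for the T cell, macrophage, dendritic cell, mast cell and endothelial lists, as it did for Btc. The same held for the fibroblast list and for the keratinocyte list, which was near 0. Control replicate 1 lay below that range, and was the lowest control, for the neutrophil, skeletal muscle, Schwann cell, epithelial, erythroid and adipocyte lists. For Nrg1 it lay below the range as the highest control. Of the neutrophil markers, Csf3r did likewise, at 810, 549 and 382 in control replicates 1, 2 and 3, against 1262 to 2202 after anti-CD73. So did Cxcr2 and Cxcr1 and, of the macrophage markers, Itgam, Mertk and Fcgr3. S100a8 and S100a9, which made up most of the neutrophil sum, were instead lowest in control replicate 1, as was Retnlg. The remaining markers of both lists followed neither pattern.

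**Figure D4:**
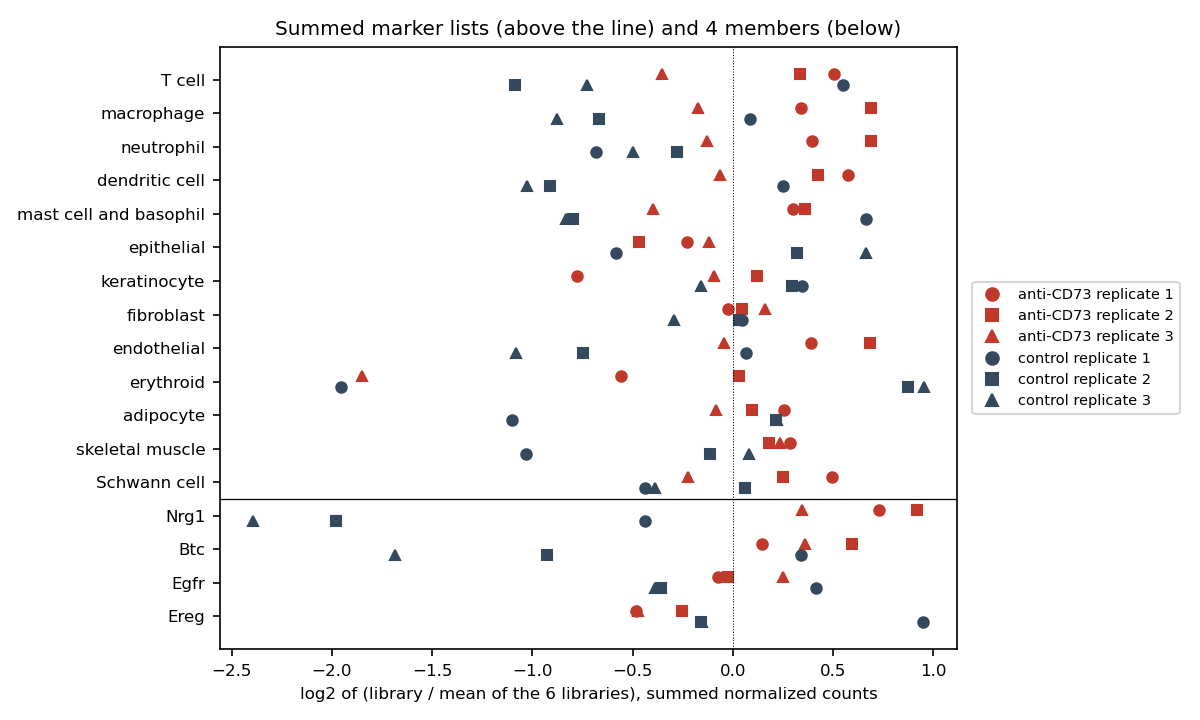
Summed normalized counts of each marker list (above the line) and of Nrg1, Btc, Egfr and Ereg (below), as the log2 ratio of each library to the mean of the 6 libraries. Anti-CD73 libraries are red, controls dark, and the symbol gives the replicate. The neutrophil list, the skeletal muscle list and Nrg1 separate the groups, while control replicate 1 lies among or above the anti-CD73 libraries for Btc, Egfr and Ereg.

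The genes with profiles most like those of Egfr, Ereg and Errfi1 were named by the root mean square difference between log2 profiles centred per gene, over the 6 libraries. For Egfr they included Zfp438 (0.06) and Fam136a (0.07). For Ereg they were Zfp119a (0.09), Tex19.1 (0.10) and Elovl6 (0.10), which, like Ereg, were highest in control replicate 1. Elovl6, a fatty acid elongase gene, had 770, 823 and 812 normalized counts in anti-CD73 replicates 1, 2 and 3, against 1919, 955 and 830 in control replicates 1, 2 and 3. For Errfi1 they were Appbp2 (0.04), Ncoa4 (0.04) and Opn3 (0.04), again highest in control replicate 1. For Ereg and Errfi1 the shared highest library follows from choosing genes by likeness of profile and is not a separate result.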

How the data were processed

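Bulk RNA-seq of 6 tumour libraries (3 anti-CD73, 3 control) was used, with groups from the sample titles and table columns matched through the sample descriptions, which carry other replicate numbers. Signal in the deposited table is DESeq-normalized gene counts, per the labels: the authors scaled each library by 1 factor. The labels' protocols name NEBNext Ultra II for RNA libraries. No source used here says whether strand was kept, so reads of overlapping antisense genes cannot be told apart. The submitters' processing notes list Bowtie 0.12.7 and mm10, with no role. Counter and annotation: not given in the sources used here.

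In each library 100% of values were whole multiples of the value of 1 read within 0.01, so reads were recovered by division. The main test was limma 3.58.1 (R 4.3.3, trend, two-sided) on log2(normalized count + 1) for the 12262 genes with a mean of at least 10, adjusted by Benjamini and Hochberg over those genes at 0.05. On this scale the change of a low gene is understated. On the recovered reads, edgeR 4.0.16 and DESeq2 1.42.0 were run as alternatives. Their scripts were tested on simulated data in which all genes had the same dispersion and no library stood apart, unlike control replicate 1 here. Poisson intervals are at 95%.

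Members and lists were chosen with earlier results of these data known. All members were named, and from each pathway list the gene with the smallest p in each direction, as none passed, and for 1 receptor, 1 ligand and Errfi1 the 3 most similar profiles. A few genes this rule names are not reported here. Transcript lengths were not used here, so levels are not compared between genes. Positions and promoters are from RefSeq, GRCm38.p6, the assembly of mm10, 1-based. Alternatives were pseudocounts of 0.5 and 8, no filter, a higher filter (mean of 50), quantile normalization, TMM scaling, erythroid genes left out with libraries rescaled, replicate blocks, edgeR, DESeq2 and each library left out. edgeR and DESeq2 without control replicate 1 were added after seeing the data.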

Additional observations from a re-analysis of the deposited data

How the results depend on the processing

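With 0 genes, 0 members and 0 pathway genes called by limma on all 6 libraries, the pseudocounts, filters, TMM scaling, quantile normalization, removal of erythroid genes, edgeR and the replicate block by title number also gave 0 for each. DESeq2 called 542 genes, 1 member and 4 pathway genes. With each library left out in turn, limma called from 0 to 2724 genes, 0 to 3 members and 0 to 10 pathway genes, the highest in each case without control replicate 1 and 0 without any other library. Without control replicate 1, edgeR called 2703 genes, 3 members and 10 pathway genes, and DESeq2 called 2624, 2 and 9. The replicate block by description number called 1780 genes, 1 member (Nrg1, log2 fold change 2.63) and 5 pathway genes. That block leaves control replicate 1 and anti-CD73 replicate 2 in blocks of their own, so the fold change rests on 2 pairs. Libraries with the same title number did not all deviate together from their group means (correlations of 0.19, -0.10 and 0.26 across genes), so the title numbers are not treated as pairs. Of 169 values of single members under 19 alternatives, 157 kept their direction and side of the threshold. Left out were Btc by DESeq2, for want of an adjusted p, and Btc under the higher filter, as its mean of 16.8 is below 50. A further 10 values passed the threshold (Nrg1, Btc and Egfr). The last 2 reversed: Erbb3 at -0.029 with quantile normalization and -0.081 without anti-CD73 replicate 3 (from -0.081 to 0.14 with each library left out). The median log2 fold change of all tested genes moved by less than 0.1 in every alternative. The cause of the calls gained without control replicate 1 was not tested. Depth limits Tgfa, Btc and, in controls, Nrg1.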
